A study of Homo sapiens with 2 samples.

Results

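Cells make cholesterol from acetyl-CoA by the mevalonate pathway, in which HMG-CoA is formed, reduced to mevalonate and converted into isopentenyl diphosphate, the unit of all isoprenoids. Condensation of these units gives farnesyl diphosphate, which is either spent on squalene and sterols or drawn off for protein prenylation, ubiquinone and dolichol. The genes are controlled together by SREBP transcription factors, and in prostate carcinoma cells lipogenic genes are also known as targets of androgen signalling. The genes examined here were 8 of the 64081 in the deposited table, namely HMGCS1, IDI1, IDI2, FDPS, FDFT1, SQLE and LSS, which encode enzymes of this pathway, and IDI2-AS1, a lncRNA gene of the IDI1 and IDI2 locus. They were chosen by name as genes of this pathway and locus, with earlier results of these data known, and all 8 have a row in the table.

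The counts come from LNCaP, an androgen-sensitive line derived from a prostate carcinoma metastasis, kept for 48 h without androgen: the serum of the RPMI-1640 medium (10% FBS, with 10 mM HEPES) was replaced by charcoal stripped serum. Poly(A)+ RNA of 2 biological replicates, both labelled as controls, was sequenced as strand-specific read pairs of 75 nt. The table has 1 count column for both replicates together, so there is no replicate error, no second condition and no test. Intervals are at 95% and describe counting error alone, because both replicates are in 1 column. The intervals may be too narrow, since no molecular identifiers separate PCR copies from independent molecules. In all, 9495309 pairs were counted on genes, 6.39% of the uniquely placed pairs, and the 8 genes held 2512 of them (0.0265%).

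The strand of counting decides what a listed count means. The libraries were mapped as type fr-secondstrand, where read 1 carries the sense of the RNA. For paired-end data of this kind the counting setting was reverse, which looks for genes antisense to read 1. With these settings combined, a pair is credited to the gene across from its own transcript, and a transcript is seen only where another gene is annotated opposite to it. Values below are therefore given as listed, not as levels of the named RNA, and each gene is set beside the genes whose exons lie opposite to it. In bulk RNA, moreover, fewer cells with a transcript and less RNA per cell cannot be told apart. Markers of prostate luminal cells, the identity given by the label, had listed counts from 8 for HOXB13 to 6947 for KRT8 with a median of 36, and KLK3, which encodes prostate specific antigen, had 18. None of those 9 markers was at 0. By comparison, the 4 stromal markers had 6 to 15 counts, the 3 leukocyte markers had 0 to 49, with CD3E at 0, and the endothelial markers CDH5 and VWF had 3 and 0. For the reason given above, these counts are no check of the cell type.

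Of the 8 genes, 7 share exonic sequence with at least 1 gene on the other strand, and only SQLE does not. The overlap of IDI2-AS1 follows from its choice as the antisense gene of this locus. Of the 7 protein-coding genes, 6 share such sequence, beside 33.3% of all protein-coding genes. The following stretches, from the GRCh37 reference, are coding sequence of a pathway gene, printed 5′ to 3′ on its own strand, and each lies opposite an exon of a lncRNA. By position, a read within such a stretch can belong to either gene, and its strand tells them apart. With inserts of 150 to 250 nt, its mate may lie outside the stretch. They are shown as examples of sequence annotated on both strands. How many pairs fall on them is not known, since counts are per gene. The IDI2 stretch is the whole of an exon of 93 nt at chr10:1068623-1068715, opposite IDI2-AS1. The IDI1 stretch is 142 nt at chr10:1089939-1090080, also opposite IDI2-AS1. The FDPS stretch is 198 nt at chr1:155290200-155290397, opposite RUSC1-AS1, and the LSS stretch is 122 nt at chr21:47641768-47641889, opposite ENSG00000223901. IDI2, IDI1 and LSS are on the minus strand and FDPS is on the plus strand.
IDI2: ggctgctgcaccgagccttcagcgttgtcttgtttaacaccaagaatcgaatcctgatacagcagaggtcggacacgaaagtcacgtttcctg
IDI1: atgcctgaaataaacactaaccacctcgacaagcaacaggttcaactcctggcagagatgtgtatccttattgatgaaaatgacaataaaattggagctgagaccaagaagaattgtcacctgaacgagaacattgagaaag
FDPS: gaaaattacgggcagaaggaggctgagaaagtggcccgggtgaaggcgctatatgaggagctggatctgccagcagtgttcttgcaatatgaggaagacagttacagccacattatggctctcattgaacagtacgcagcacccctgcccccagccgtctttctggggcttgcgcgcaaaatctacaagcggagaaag
LSS: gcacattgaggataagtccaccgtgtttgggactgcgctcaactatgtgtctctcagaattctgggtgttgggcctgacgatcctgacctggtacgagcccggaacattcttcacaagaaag

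The listed counts of the 8 genes differed by a factor of 224 between the highest and the lowest, and fell into a group of 4 above 300 and a group of 4 below 50. The high group comprised IDI2-AS1 with 1121 counts (exact Poisson interval 1056 to 1189), IDI2 with 613 (565 to 664), FDPS with 390 (352 to 431) and IDI1 with 325 (291 to 362). In the low group were FDFT1 with 42 counts (30.3 to 56.8), SQLE with 10 (4.80 to 18.4), LSS with 6 (2.2 to 13.1) and HMGCS1 with 5 (1.62 to 11.7). The intervals of SQLE, LSS and HMGCS1 overlap, and so do those of FDPS and IDI1. Of the 7 protein-coding genes, 5 had at least 10 counts, beside 44.2% of 19404 protein-coding genes. At least 100 counts were listed for 3 of the 7, beside 13.6%. Among the 6 that have exons opposite them, 4 reached 10 counts, beside 65.3% of all 6465 such genes, a share near this background, and 3 reached 100 counts, beside 29.2%.

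**Figure D1:**
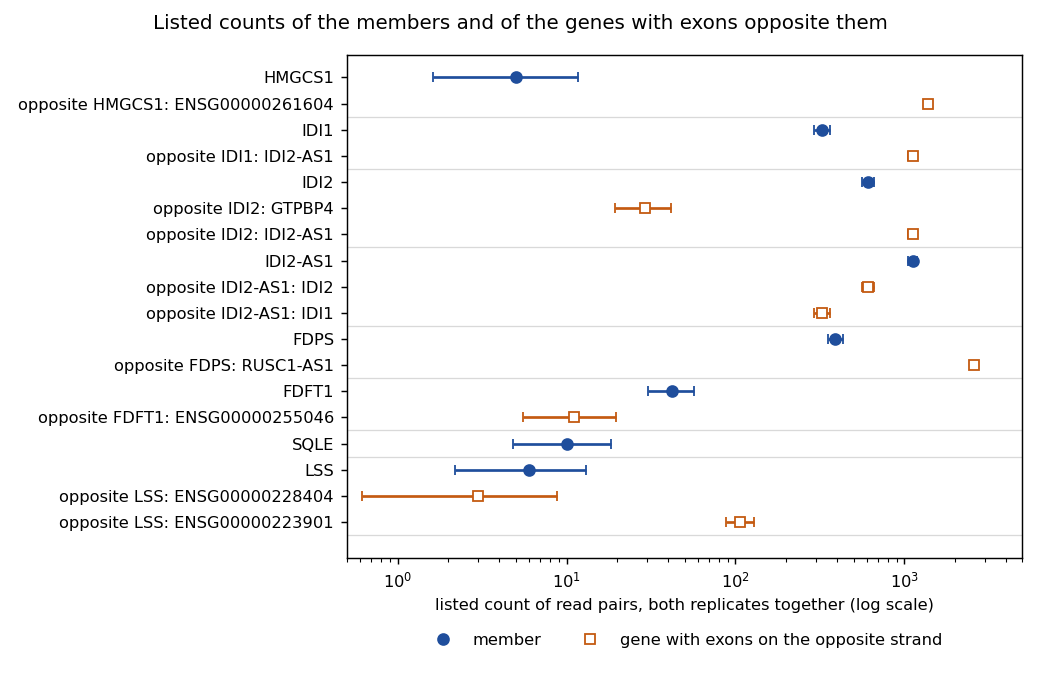
Listed counts of read pairs on a log scale for the 8 genes (filled circles) and, under each, for the genes with exons opposite it (open squares), with both replicates in 1 value and bars for exact Poisson 95% intervals. HMGCS1 lies at 5 beside 1389 for the gene opposite to it, whereas IDI2 lies at 613 beside 29 for GTPBP4.

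Exonic length, the union of all annotated exons, was 1356 nt for IDI2, 3570 for IDI2-AS1, 3718 for FDPS, 4294 for IDI1, 4305 for SQLE, 5080 for FDFT1, 6627 for HMGCS1 and 7238 for LSS. Per kb of this length, IDI2 had the highest listed count, 452 (417 to 489), followed by IDI2-AS1 with 314 (296 to 333), FDPS with 105 (94.7 to 116) and IDI1 with 75.7 (67.7 to 84.4). The intervals of these 4 genes do not overlap. FDFT1 had 8.27 counts per kb (5.96 to 11.2), SQLE 2.32 (1.11 to 4.27), LSS 0.829 (0.304 to 1.80) and HMGCS1 0.754 (0.245 to 1.76), of which the last 3 overlap. The median of all protein-coding genes was 1.22 counts per kb, inside the intervals of SQLE, LSS and HMGCS1. Among protein-coding genes with at least 1 count, IDI2 was at percentile 98.9 of counts per kb, FDPS at 94.5, IDI1 at 92.6, FDFT1 at 69.0, SQLE at 45, LSS at 24.9 and HMGCS1 at 23.3. On the same scale IDI2-AS1, which is not protein-coding, would stand at percentile 98.1. Among 1736 genes named as the antisense of another gene in the table, its listed count ranks 87.

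**Figure D2:**
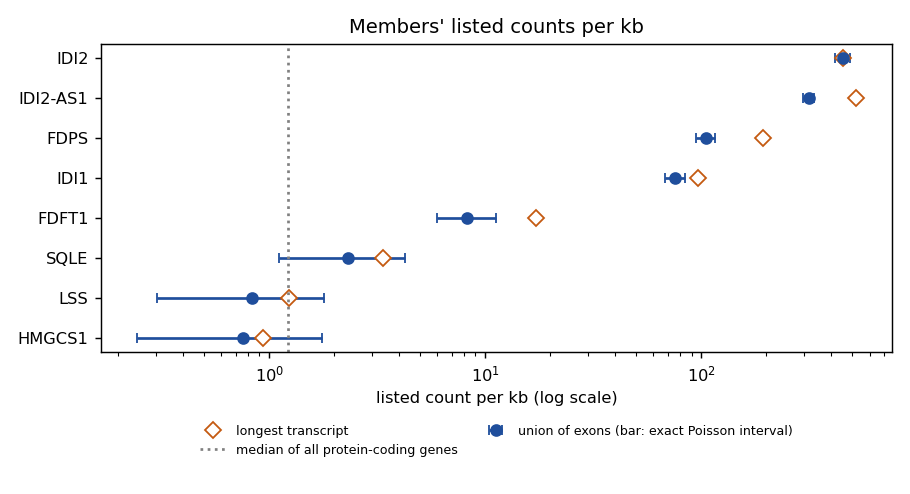
Listed counts per kb on a log scale for the 8 genes, by the union of exons (filled circles, bars for exact Poisson 95% intervals) and by the longest annotated transcript (open diamonds), with the median of all protein-coding genes, 1.22, as a dotted line. The order of IDI2 and IDI2-AS1 changes with the length used, from 452 and 314 to 452 and 522.

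HMGCS1 encodes the cytosolic synthase that makes HMG-CoA from acetoacetyl-CoA and acetyl-CoA. The gene (ENSG00000112972.10) lies on the minus strand at chr5:43287572-43313614 of GRCh37. Only 5 pairs are listed for it, or 0.754 per kb. Opposite to it, ENSG00000261604, a lncRNA gene at chr5:43287703-43290941, has 1389 listed pairs (1317 to 1464), or 556 per kb (527 to 586). All 2497 exonic nt of that lncRNA gene lie opposite exons of HMGCS1, in non-coding exonic sequence near its 3′ end, and make up 37.7% of the exonic length of HMGCS1. Among genes of the table with a model in the annotation used, no other has exons opposite to this lncRNA gene. Under the settings above, its 1389 pairs come from the strand of HMGCS1 and the 5 pairs listed for HMGCS1 from the other strand.

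IDI1 encodes isopentenyl diphosphate isomerase, which converts isopentenyl diphosphate into dimethylallyl diphosphate, and IDI2 encodes its paralog, known mainly from skeletal muscle. IDI1 (ENSG00000067064.6) lies at chr10:1085092-1095059 and IDI2 (ENSG00000148377.5) at chr10:1064850-1071799, both on the minus strand and 13292 nt apart. IDI2-AS1 (ENSG00000232656.3) lies on the plus strand at chr10:1068558-1091365 and spans the gap between them. Its 5′ end is inside IDI2, head to head with it, and its 3′ end is inside IDI1, tail to tail with it. Of its 3570 exonic nt, 643 (18.0%) lie opposite exons of IDI1 and 1254 (35.1%) opposite introns of IDI1. Inside the span of IDI2 lie 166 nt, of which 93 (2.61% of the 3570) are opposite an exon of IDI2 and the rest opposite an intron. Outside both genes lie 1507 (42.2%). The stretch shared with IDI1 makes up 15.0% of the exonic length of IDI1, and 173 nt of it are coding in at least 1 isoform.

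**Figure D3:**
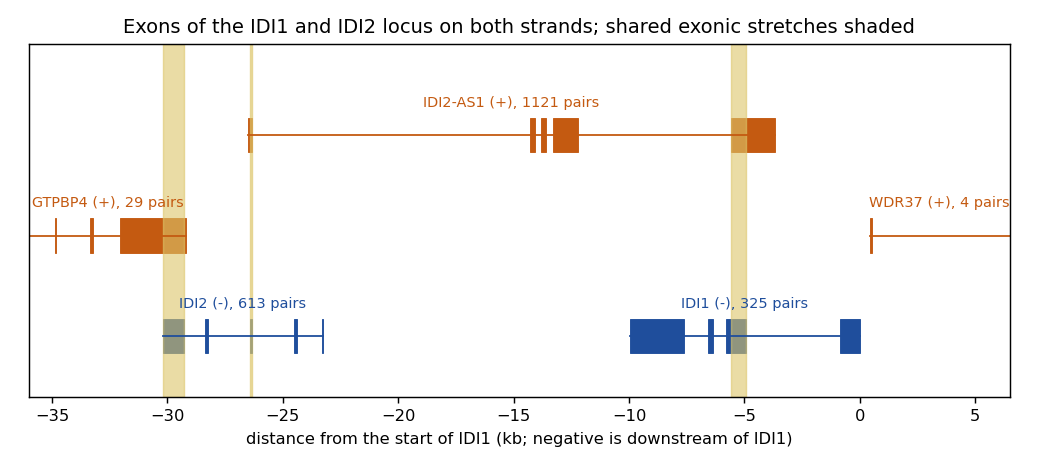
Exons (boxes) and introns (lines) of the genes at the IDI1 and IDI2 locus, by distance in kb from the start of IDI1, with the plus strand in orange and the minus strand in blue, and shading where exons lie on both strands. IDI2-AS1 reaches from IDI2 into IDI1, and the widest shaded stretch, 925 nt, is shared by GTPBP4 and IDI2.

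IDI2-AS1 had 64.6% of the pairs listed for IDI2-AS1 and IDI2 together (exact binomial interval 62.3% to 66.9%). Per kb of exonic length its share was 41.0%, so IDI2 was the higher of them by 1.44 times, and per kb of the longest transcript it was 53.6%. The order of these 2 genes thus depends on the length used. As background, in 50.1% of 1594 pairs of a gene and its named antisense with unequal counts, the antisense was higher. Against IDI1, the listed count of IDI2-AS1 was higher on each scale. It had 77.5% of the pairs listed for both (75.3% to 79.7%), 80.6% per kb of exonic length and 84.4% per kb of the longest transcript. Under the settings above, the pairs listed for IDI2-AS1 come from the strand of IDI1 and IDI2. Those listed for IDI1 and IDI2 come from the strand of IDI2-AS1, so these shares do not compare the named RNAs. IDI2 had 65.4% of the pairs listed for IDI2 and IDI1 (62.2% to 68.4%), or 5.97 times the count of IDI1 per kb.

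IDI2 has the largest share of its exonic length on both strands among the 8 genes, 1018 of 1356 nt (75.1%). Most of it, 925 nt or 68.2%, lies opposite the last exon of GTPBP4, a gene for a GTPase of ribosome assembly on the plus strand at chr10:1034374-1065872, whose 3′ end runs into that of IDI2. GTPBP4 had 29 listed counts (19.4 to 41.6), or 4.74 per kb (3.17 to 6.80), beside 613 and 452 per kb for IDI2. Under the settings above, the pairs listed for IDI2 come from the strand of GTPBP4 and of IDI2-AS1. How the 613 pairs divide between the 925 nt opposite GTPBP4, the 93 nt opposite IDI2-AS1 and the remaining exons cannot be told from a count per gene. On the other side of IDI1, WDR37 starts 418 nt away in the opposite direction and had 4 counts, and the small nuclear RNA copy RNU7-163P, inside IDI2-AS1, had 0.

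Because IDI1 and IDI2 are paralogs, reads could in principle be placed on the wrong copy. Their coding sequences, of 852 nt and 681 nt in the longest isoforms, are 67.8% identical over 681 aligned nt. The longest identical run in them is 14 nt, shorter than the reads of 75 nt. The rest of the exonic length, which is 4294 nt in all for IDI1 and 1356 nt for IDI2, was not compared. Placement of reads was not tested. The IDI2 exon opposite IDI2-AS1 has a counterpart of the same length in IDI1, at chr10:1089241-1089333, which lies opposite an intron of IDI2-AS1 and none of its exons. Both are printed on the minus strand with the bases that differ between them in capitals, 31 of 93 nt, to show how far a read on this exon separates the genes. The longest run without a difference is 7 nt.
IDI2: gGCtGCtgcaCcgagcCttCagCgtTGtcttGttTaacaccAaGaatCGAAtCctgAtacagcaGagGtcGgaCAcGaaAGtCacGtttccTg
IDI1: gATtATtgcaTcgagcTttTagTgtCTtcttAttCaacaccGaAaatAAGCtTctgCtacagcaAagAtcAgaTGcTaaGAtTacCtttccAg

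FDPS encodes farnesyl diphosphate synthase, the enzyme at the branch to sterols and prenyl groups. The gene (ENSG00000160752.10) lies on the plus strand at chr1:155278539-155290457 and had 390 listed counts, or 105 per kb. RUSC1-AS1, a lncRNA gene on the minus strand at chr1:155286654-155293967, meets it tail to tail and had 2567 counts (2469 to 2668), or 730 per kb (702 to 759). Both values for RUSC1-AS1 exceed those for FDPS beyond the counting intervals. They share 693 exonic nt, 18.6% of FDPS, of which 528 are coding, including the 198 nt printed above. RUSC1-AS1 also has 400 nt (11.4% of its exonic length) opposite exons of RUSC1, which had 76 counts, so under the settings above its pairs can come from FDPS, from RUSC1 or from other transcripts of the plus strand. HMGCS1, IDI1 and FDPS were the 3 of 6 protein-coding genes here whose partner with the most shared exonic nt had the higher count. Among all 6465 protein-coding genes with such a partner, this held for 54.8%. Both values are by count, without regard to length. Per kb, such partners of FDFT1 and LSS were also the higher, with overlapping intervals.

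FDFT1 (ENSG00000079459.8, plus strand, chr8:11653082-11696904) encodes squalene synthase, which commits farnesyl diphosphate to sterols. It had 42 counts, and the lncRNA gene ENSG00000255046 inside it on the other strand had 11 (5.49 to 19.7). Per kb they had 8.27 and 10.1 (5.03 to 18.0), whose intervals overlap. They share 217 non-coding nt, 4.27% of FDFT1. SQLE (ENSG00000104549.7, plus strand, chr8:126010739-126034525) encodes squalene epoxidase, a rate-limiting oxygenase of sterol synthesis. It had 10 counts, and no gene with a model in the annotation used lies on the other strand of its span. LSS (ENSG00000160285.10, minus strand, chr21:47608055-47648738) encodes lanosterol synthase, which closes the sterol rings. It had 6 counts, while ENSG00000228404, tail to tail with it and sharing 448 nt, had 3 (0.619 to 8.77). Per kb, the order was the other way, 0.829 (0.304 to 1.80) for LSS and 5.39 (1.11 to 15.7) for ENSG00000228404, whose intervals overlap. ENSG00000223901, inside LSS and sharing only the 122 coding nt printed above, had 107 (87.7 to 129), or 95.8 per kb (78.5 to 116) beside 0.829 for LSS. As only 10.9% of its exonic length lies opposite exons of LSS, the count does not say whether its pairs lie there or opposite introns.

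The rest of the pathway was described from lists of 36 genes, which include the 7 enzymes above. Of these 36 genes, 17 had at least 10 counts, beside 44.2% of all protein-coding genes, and the median was 2.24 counts per kb beside 1.22. The mevalonate arm, from acetyl-CoA to farnesyl and geranylgeranyl diphosphate, had 6 of 9 genes at 10 counts or more and a median of 23.1 counts per kb, and 7 of its genes have exons opposite them. In the sterol arm, from squalene to cholesterol, 3 of 12 genes reached 10 counts, the median was 1.25 per kb and 3 genes have such exons. Among regulators and sterol carriers 3 of 8 reached 10 counts (median 0.727 per kb, 4 genes with such exons), and in the prenyl branch 5 of 7 did (median 5.64 per kb, 4 genes with such exons).

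Split by strand overlap, a division added after the counts were seen, the 18 genes with an exon opposite them had a median of 14.9 counts per kb, and the 18 without had 0.822. The medians of all protein-coding genes in these classes were 4.54 and 0.630. At least 10 counts were listed for 12 of the 18 (66.7%), beside 65.3% of all such genes, and for 5 of the 18 without (27.8%), beside 33.7%. Leaving out the 7 enzymes described above, the medians were 14.9 for 12 genes and 0.584 for 17 genes.

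**Figure D4:**
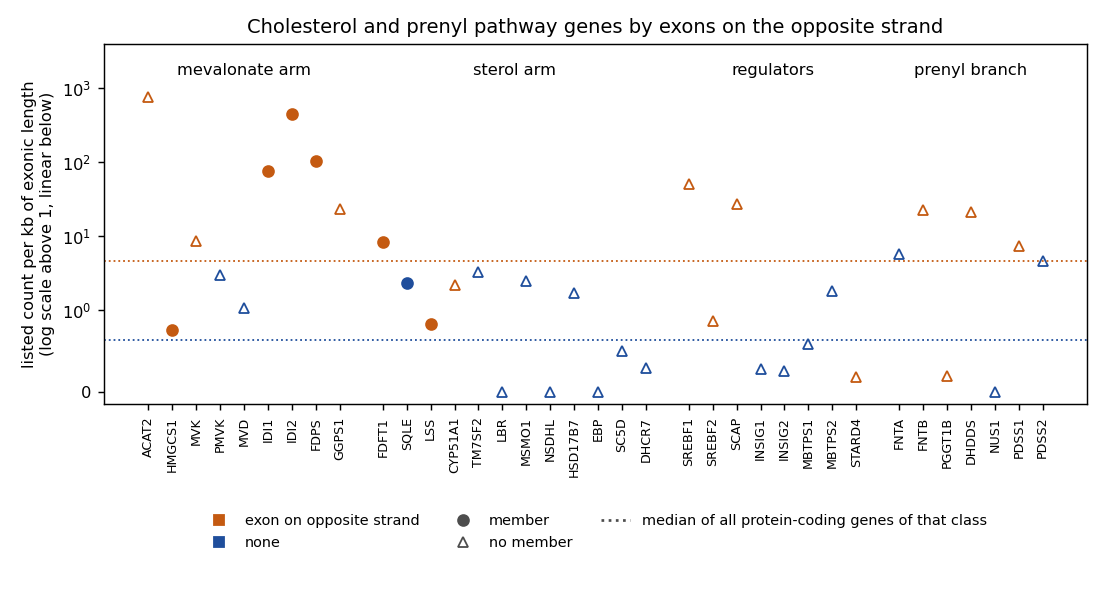
Listed counts per kb of exonic length for 36 genes of cholesterol and prenyl metabolism (log scale above 1, linear below), with genes that have an exon opposite them in orange and the others in blue, circles for the genes described one by one and triangles for the rest. Dotted lines give the medians of all protein-coding genes with (4.54) and without (0.630) such exons; each gene at 0 is blue.

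The 7 list genes with at least 100 counts all have exons opposite them, as do 71.2% of all protein-coding genes with at least 100 counts, and 4 of them belong to the mevalonate arm. ACAT2, the thiolase that makes acetoacetyl-CoA, had the most, 2028 (1941 to 2118), or 768 per kb. It shares 454 nt with TCP1, a chaperonin subunit gene with 622 counts, at their 3′ ends. At its 5′ end, 133 exonic nt of ACAT2 also lie opposite SOD2, which has no row under its annotated identifier, so its listed count is not given. SREBF1, which encodes an SREBP, had 411 counts and shares 556 nt with RAI1 (70 counts). SCAP, the sterol sensor of SREBPs, had 171 counts beside 8 for a snoRNA gene, and DHDDS, a dolichol synthesis enzyme, had 152 beside 185 for DHDDS-AS1. The others were IDI2, FDPS and IDI1. By contrast LBR, NSDHL, EBP and NUS1 had 0 counts, with an exact Poisson interval of 0 to 3.69 each. Among genes with a model, none has an exon opposite these 4, as is the case for 84.2% of all protein-coding genes at 0. Of all protein-coding genes, 26.3% had 0 counts.

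Of the 18 list genes with exons opposite them, the partner with the most shared exonic nt had the higher count for 9 and the lower for 9. Among all such genes it was higher for 54.8%. These comparisons are by count, without regard to length. Examples of a lncRNA partner with the higher count, chosen after their values were seen, follow. STARD4, a sterol carrier, had 1 count beside 2079 for STARD4-AS1 (124 shared nt), SREBF2, the SREBP gene most tied to sterol synthesis, had 7 beside 831 for SREBF2-AS1 (731 nt), and PGGT1B, a prenyltransferase subunit, had 2 beside 127 for ENSG00000271797 (166 nt). These 3 shared stretches cover 1.65% to 9.08% of the exonic length of the pathway gene. Whether the pairs listed for the lncRNA genes lie in these stretches cannot be told from a count per gene.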

How the data were processed

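Per the submitters' processing notes and the methods of the study, Trimmomatic 0.30 was used for trimming, TopHat2 2.0.12 with Bowtie2 2.2.3 for mapping to hg19 (library type fr-secondstrand for LNCaP), SAMtools for sorting and HTSeq 0.6.1p1 for counting. The authors deposited the counts without normalization, as 1 column for 2 replicates, with 5 summary categories that were left out of all gene values. Ensembl identifiers were matched without version to GENCODE 44 on GRCh37 (the build named hg19), 55538 in all, and 2282 found no model. The gene models that the authors counted on may differ from these, so exonic lengths and shared stretches are those of GENCODE 44. XLOC identifiers have no model here. Exons were merged per gene, and a stretch is shared where merged exons of genes on both strands overlap by at least 1 nt.

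The members and lists were chosen with earlier results of these data known. Named were the members, genes with exons opposite them, genes within 20 kb of the IDI1 to IDI2 span, list genes with at least 100 counts or 0 counts, and opposite genes of list genes with over 100 counts. RUSC1, RAI1 and the snoRNA gene, partners of named genes, were named after their values were seen. A few genes of the lists fixed in the design are not reported here and were left out of the lists' counts and medians. Intervals are exact Poisson and exact binomial (Clopper-Pearson). The 9495309 pairs counted on genes, for both replicates, limit the precision for genes with few counts. Of 148700190 uniquely placed pairs, 138995418 (93.5%) fell on no feature. Interval and rank functions were tested on simulated data. Paralogs were aligned with Biopython 1.88. Other work used Python 3.11.15, pandas 2.3.3, numpy 2.4.6, scipy 1.17.1 and matplotlib 3.10.9. Alternatives were the length, the count minimum, the scale of shares and ranks, and the shared nt.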

Additional observations from a re-analysis of the deposited data

How the results depend on the processing

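The share of IDI2-AS1 in the pairs of IDI2-AS1 and IDI2 reversed from 64.6% to 41.0% per kb of exonic length and was 53.6% per kb of the longest transcript. Its share against IDI1, 77.5%, was 80.6% and 84.4% on these scales. Of 36 pathway genes, 17 had at least 10 counts, 32 at least 1 and 11 at least 50. The pathway median, 2.24 counts per kb, was 21.2 among genes with at least 10 counts, and, in the split chosen after seeing the data, 14.9 with and 0.822 without an opposite exon. With the longest transcript as length, 4 of 8 members moved beyond their counting interval. All moved upward, as they must, since that length never exceeds the union of exons. With ranks among genes with at least 10 counts, all 8 percentiles moved down, and HMGCS1 and LSS themselves lie under that minimum. The direction follows from taking genes with few counts out of the ranking. The number of members with an opposite exon, 7, was the same for 50 shared nt, for gene spans and for every annotated gene. Leaving out a replicate was not run, and no paired analysis was possible because both replicates are in 1 column.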

Other observations

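Processed copies of the pathway genes were counted in the same table. Of 8 FDPS copies, 3 were at 0, and the highest counts were 435 for FDPSP7 (chr7:76597514-76598567) and 102 for FDPSP2 (chr7:76099479-76100375), beside 390 for FDPS. Per kb, FDPSP7 had 413 and FDPSP2 had 114, beside 105 for FDPS. Both copies are on the minus strand, FDPSP2 opposite the span of DTX2 (120 counts) and FDPSP7 opposite the span of DTX2P1-UPK3BP1-PMS2P11 (0 counts). Under the settings above, the pairs listed for these copies come from the plus strand, so their counts are not levels of the copies. The 3 copies of IDI1 were at 0, a count for which the exact Poisson interval is 0 to 3.69. Pairs placed on several sites, 34171204 alignments, were not counted on any gene.

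The letters CACCCCAC, a core of the sterol regulatory element, were searched on both strands of RefSeq promoter windows (GRCh38.p14, from 250 bases before to 50 after each start). They occur for 926 of 27305 genes (3.39%), for 0 of the 6 members with a window, and for 1 of 26 mevalonate, sterol and regulator genes, SREBF2. The letters TCACCCCA, which overlap that motif, occur for 1.88% of all genes, for 0 of the 6 members and for 2 of the 26, MVK and SREBF2. Only these letters in these windows were searched.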
